A study of Eutrema salsugineum with 2 samples.

Results

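The 3 genes described here are plant defensin genes that the study's tables list by identifier and hit in E. salsugineum, a salt-tolerant relative of A. thaliana, taken by their identifiers from a table of 17888 genes with reads. Thhalv10000535m.g and Thhalv10000662m.g share the best A. thaliana hit AT5G44420, plant defensin 1.2A. Thhalv10019398m.g has the best hit AT5G44430, plant defensin 1.2C. Thhalv10000662m.g and Thhalv10019398m.g had been listed by the study as candidate differentially expressed genes on the same contrast, so their differences are given here as a description with intervals and without a test. Thhalv10000535m.g was not in that list. The genome holds further gene models of the family, as the study states, so sums and shares below cover these 3 genes and not the whole family.

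Transcripts were sequenced from whole rosettes of 2 accessions, YK from the Yukon and SH from Shandong, with 1 library of each. All plants were 4 weeks old and well watered, under a photoperiod of 12 h with days at 22 °C and nights at 20 °C, and rosettes were taken midway through the night. The methods describe 4 biological replicates of 5 pooled rosettes, while the submitters' notes give a single replicate from 5 pooled plants, and the table analysed here has a single column of reads per accession. There is therefore no replicate check, and every interval below is a 95% exact (Clopper-Pearson) binomial interval that covers counting error in these libraries only. Reads assigned to genes summed to 431705 in YK and 482275 in SH. Scaling by median of ratios gave a factor of 1 for each library, so reads are compared as counted. RPM, the reads of a gene per 1000000 reads assigned to genes, divide by the total of the library instead, and comparisons scaled that way raise every log2 ratio of YK over SH by 0.16. The labelled tissue could not be checked against leaf markers, because none of the 10 leaf marker genes had an identifier paired with its A. thaliana hit in the sources used.

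Plant defensins are small secreted peptides rich in cysteine, held together by disulfide bridges, and many of them inhibit the growth of fungi. In A. thaliana the PDF1.2 genes are standard reporters of the combined jasmonate and ethylene response, in which the ethylene response factors ERF1 and ORA59 activate their transcription. Genes of this family are near copies of each other, which bears on how reads are assigned among them.

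All 3 defensin genes had more reads in YK than in SH, as did 47.7% of the 10036 genes with at least 10 reads over both libraries. Together they held 1815 reads in YK and 571 in SH, which is 0.420% of the YK library and 0.118% of the SH library. In RPM the sum was 4204 in YK (interval 4013 to 4402) and 1184 in SH (interval 1089 to 1285). The ratio of reads was 3.18 (interval 2.89 to 3.50), a log2 ratio of 1.67. The genes were unequal in this difference: the ratio was smallest for the gene with the most reads and largest for the gene with the fewest. In a whole rosette, more transcript per cell and more cells that express a gene cannot be told apart.

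**Figure D1:**
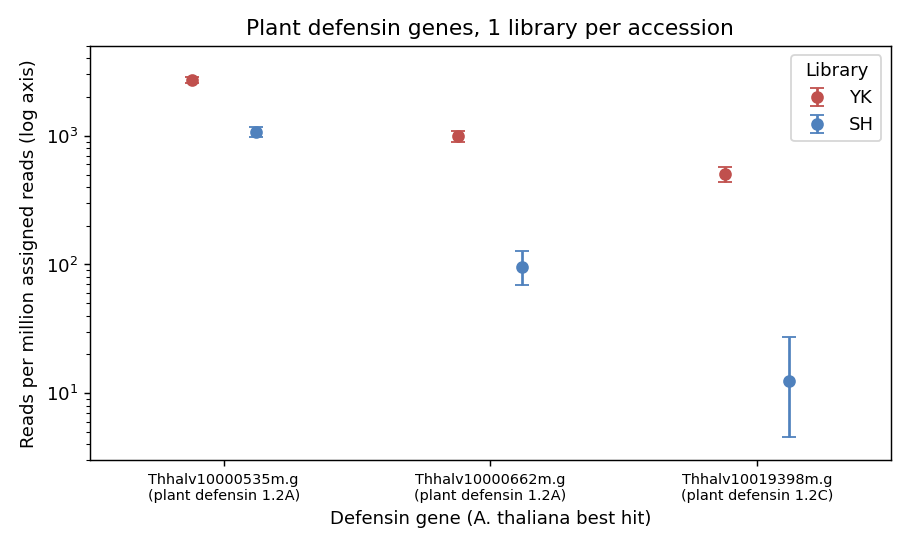
RPM (log axis) of each defensin gene in YK (left point of each pair) and SH (right point), 1 library each, with 95% exact binomial intervals. YK lies above SH for all 3 genes, and the gap widens from Thhalv10000535m.g (2708 against 1076) to Thhalv10019398m.g (503 against 12.4).

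Thhalv10000535m.g, on scaffold 15 from 6077445 to 6077784 in the Phytozome v9.1 assembly, had 1169 reads in YK and 519 in SH. This was 2708 RPM in YK (interval 2555 to 2867) and 1076 RPM in SH (interval 986 to 1173). It was among the abundant transcripts of each library, ranked 22 by reads in YK and 95 in SH among the 17888 genes. Its locus spans only 340 bp, against a median of 2200 bp in the table. Per kb of locus span it held 3438 reads in YK and 1526 in SH, ranked 5 in YK and 14 in SH. The ratio of reads was 2.25. After adding 0.5 reads to each count the log2 ratio was 1.17, with an interval of 1.02 to 1.32. In the two-sided exact binomial test over those 10036 genes, its Benjamini-Hochberg adjusted p was 8.36e-55. A gene was called where the adjusted p was below 0.05 and the reads differed at least 2-fold. Thhalv10000535m.g was called higher in YK, as were 2.74% of the genes tested (275 of 10036), while 3.88% were called higher in SH. With single libraries the test says nothing of the spread between plants of an accession. The call was not kept by tests that allow for spread between plants: the adjusted p was 0.158 in the exact test of edgeR when a coefficient of variation of 0.2 was assumed, and 1 at 0.4 or in a negative binomial test with the spread estimated across genes. Its interval starts at a log2 ratio of 1.02, just above the limit of 1.

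Thhalv10000662m.g lies on the same scaffold from 6158505 to 6158847, a locus of 343 bp. It had 429 reads in YK and 46 in SH, or 994 RPM in YK (interval 902 to 1092) and 95.4 RPM in SH (interval 69.8 to 127). Per kb of locus span it held 1251 reads in YK and 134 in SH, ranked 17 in YK and 325 in SH among all genes. The ratio of reads was 9.33 (interval 6.87 to 12.9), and the log2 ratio was 3.21 (interval 2.78 to 3.69). Its lower bound exceeded the upper bound of Thhalv10000535m.g, although these genes share the same best A. thaliana hit. Of the genes tested, 59 had a larger log2 ratio, a rank that partly restates why the study listed this gene.

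Thhalv10019398m.g, the gene closest to plant defensin 1.2C, lies on scaffold 9 from 2088910 to 2089421 and spans 512 bp. It had 217 reads in YK and 6 in SH. This was 503 RPM in YK (interval 438 to 574) and 12.4 RPM in SH (interval 4.57 to 27.1). The SH level was close to the 6.22 RPM that a count of 0 would allow there, given an upper limit of 3 counts. Per kb of locus span it held 424 reads in YK and 11.7 in SH, ranked 73 in YK and 3414 in SH. The ratio of reads was 36.2 (interval 16.3 to 99.6), and the log2 ratio was 5.06 (interval 4.03 to 6.64). With 6 reads in SH the size of this ratio is loosely bounded, while its interval did not overlap that of either gene on scaffold 15. Only 18 of the genes tested had a larger log2 ratio, and among the 1579 genes with at least 100 reads only 1 did. The study had listed this gene on the same contrast in these reads, so the rank partly restates that choice.

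The primers that the study lists for qRT-PCR of these genes are the only sequences at hand that belong to them. They are shown because they are short sequences designed on these genes, on one strand or the other, and capitals mark the 5 bases at the 3′ end, from which a primer is extended:
Thhalv10000662m.g forward: tggcttccttcatcgCTCTT
Thhalv10000662m.g reverse: tcgcacaacttctgagcTTTCA
Thhalv10019398m.g forward: gcagggaagacatagttgcAAGAT
Thhalv10019398m.g reverse: aagtgggacatggtctgGTGTT
The primers were 20 to 24 bases long. The longest run shared between a primer of one gene and a primer of the other, on either strand, was 5 bases. The primers need not come from matching positions, so this does not show how alike the genes are. The study's text names Thhalv10019398m.g among the genes for which primers specific to a single copy could not be designed. That gene was not tested by qRT-PCR. For Thhalv10000662m.g the study reported by qRT-PCR a higher level in YK, by a smaller fold than its reads gave. No primers for Thhalv10000535m.g are listed.

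**Figure D2:**
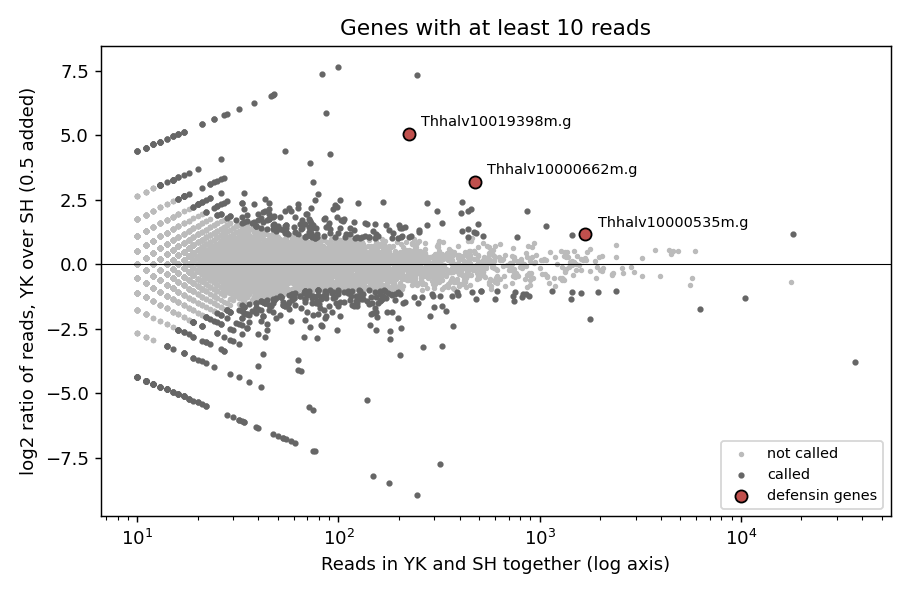
Log2 ratio of reads, YK over SH with 0.5 added, against reads in the libraries together (log axis) for the 10036 genes with at least 10 reads. Dark points were called by the exact binomial test and light points were not. The defensin genes are the 3 large points, at log2 ratios of 1.17, 3.21 and 5.06. Thhalv10019398m.g and Thhalv10000662m.g stand clear of most genes with as many reads, which partly restates why the study listed them.

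The reads of the 3 genes were split differently in the libraries. Thhalv10000535m.g held 64.4% of the reads of the 3 genes in YK (interval 62.2 to 66.6%) and 90.9% in SH (interval 88.2 to 93.1%). Thhalv10000662m.g held 23.6% in YK (interval 21.7 to 25.7%) and 8.06% in SH (interval 5.96 to 10.6%). Thhalv10019398m.g held 12.0% in YK (interval 10.5 to 13.5%) and 1.05% in SH (interval 0.387 to 2.27%). The intervals of the libraries did not overlap for any of the genes. The shares are made of the same reads as the ratios above, and a larger share of one gene lowers the others. As Thhalv10000662m.g and Thhalv10019398m.g had been listed by the study on this contrast, the different split is not a separate result. The order of the genes was the same in each library, with Thhalv10000535m.g first and Thhalv10019398m.g last, also per kb of locus span. Among these 3 genes, most SH reads thus belonged to a single one. Reads of other family members were not analysed here.

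Per kb of locus span, Thhalv10000535m.g exceeded Thhalv10000662m.g by 2.75-fold in YK (interval 2.46 to 3.08) and by 11.4-fold in SH (interval 8.41 to 15.7). On the same scale Thhalv10000662m.g exceeded Thhalv10019398m.g by 2.95-fold in YK and by 11.4-fold in SH (interval 4.88 to 32.8), and the YK interval lay below that of SH. The excess of reads in YK over SH ran in the reverse order of the YK over SH ratios. Of the 1244 reads of these genes by which YK exceeded SH, Thhalv10000535m.g gave 650, Thhalv10000662m.g 383 and Thhalv10019398m.g 211. By this excess of reads, Thhalv10000535m.g ranked 7 among all genes of the table and Thhalv10000662m.g ranked 13. Without Thhalv10000535m.g the other copies held 646 reads in YK and 52 in SH, a ratio of 12.4 (interval 9.36 to 16.8). Both of those copies had been listed by the study on this contrast, so this ratio partly restates that choice. These shares rest on uniquely mapped reads, and the reference genome is that of SH. Reads that fit several copies equally well were dropped in both libraries, so the division of reads among copies this alike is uncertain, and the part of read assignment in these values was not tested.

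**Figure D3:**
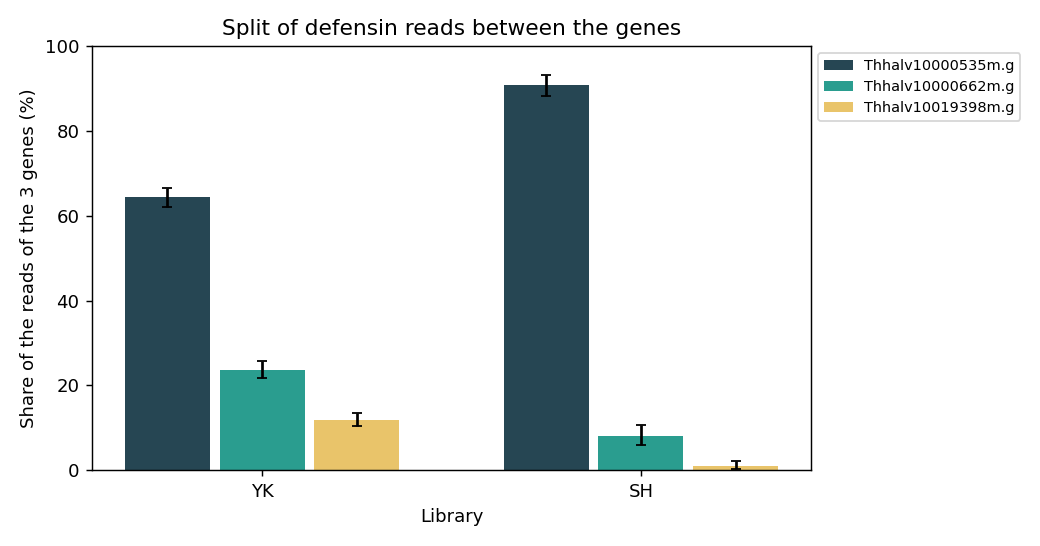
Share (%) of the reads of the 3 defensin genes that each gene held in YK (left) and SH (right), with 95% exact binomial intervals. Thhalv10000535m.g holds the largest share in each library, 64.4% in YK and 90.9% in SH.

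The defensin loci are all short. Among the 225 tested loci of at most 600 bp, 5.33% were called higher in YK and 16% were called in either direction, against 6.62% of all genes tested. Among the 1579 genes with at least 100 reads, 4.24% were called higher in YK. The genes called higher in YK include the 3 defensin genes in each of these sets, and among the short loci also the neighbour Thhalv10019397m.g. These shares are therefore not a background apart from the defensin genes. The limits of length and of 100 reads were chosen after the data had been seen.

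Actin2 (Thhalv10020906m.g), the gene that the study used as its qRT-PCR reference, had 210 reads in YK and 228 in SH. The difference was within counting error (the interval of the log2 ratio was -0.40 to 0.16). Relative to Actin2, Thhalv10000535m.g had 5.57 reads per Actin2 read in YK and 2.28 in SH. Thhalv10000662m.g had 2.04 in YK and 0.202 in SH. Thhalv10019398m.g had 1.03 in YK and 0.0263 in SH, so that it had about as many reads as Actin2 in YK and far fewer in SH. These counts are not divided by locus length.

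The surroundings of the genes on the scaffolds were unlike each other. On scaffold 15 no locus with reads lay within 25 kb of either gene. Thhalv10000535m.g and Thhalv10000662m.g were 80720 bp apart with no detected locus between them, so that each was the nearest detected neighbour of the other. On the outer sides the nearest detected loci were Thhalv10000169m.g, 86992 bp away from Thhalv10000535m.g, with 5 reads in YK and 5 in SH, and Thhalv10000022m.g, 133832 bp away from Thhalv10000662m.g, with 6 reads in YK and 4 in SH. Neither of these differed beyond counting error. Gaps of this size were uncommon on the scaffold: 21 of 376 gaps between successive detected loci exceeded 80 kb, and the median gap was 6244 bp. Over the whole of scaffold 15, 7 of 189 tested genes were called higher in YK and 13 were called higher in SH. The 7 include both defensin genes of this scaffold. As the study had listed Thhalv10000662m.g on this contrast, its place among them partly restates that choice.

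On scaffold 9, 11 detected loci lay within 25 kb of Thhalv10019398m.g. All 6 on the side of lower coordinates had more reads in YK, as did 3 of the 5 on the other side. Of the 9 with at least 10 reads, 1 was called by the exact binomial test, higher in YK, against 2.74% over the table. The median log2 ratio of these 9 loci was 0.74, and over all 656 tested genes of scaffold 9 it was 0.

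On the side of lower coordinates 3 short loci precede the defensin gene, and with it they span 11163 bp. No name is paired with these loci in the sources used here. Thhalv10019394m.g, 2730 bp away and 639 bp long, had 11 reads in YK and 1 in SH, with an adjusted p of 0.0613 in the exact binomial test. Thhalv10019397m.g, from 2081778 to 2082185, was the neighbour called. It had 80 reads in YK and 25 in SH, and its log2 ratio of 1.66 had an adjusted p of 2.83e-06 in the same test. This call was lost in the exact test of edgeR at a coefficient of variation of 0.2 (adjusted p = 0.0706). Thhalv10019399m.g, from 2078259 to 2078917, had 2836 reads in YK and 2009 in SH, or 4303 reads per kb in YK and 3049 in SH, ranked 5 by reads in YK and 10 in SH. Its log2 ratio of 0.50 (interval 0.41 to 0.58, adjusted p = 3.13e-30 in the exact binomial test) was under the fold limit, so it was not called. The next locus on the other side, Thhalv10018069m.g at 5370 bp, ran the other way with 3 reads in YK and 9 in SH (adjusted p = 0.476 in the exact binomial test). Beyond this group the remaining loci within 25 kb were not called. Added to the defensin genes, the 3 short loci bring the sum to 4742 reads in YK and 2606 in SH, a ratio of 1.82 (interval 1.73 to 1.91). This sum was formed after the values were seen and is set mostly by the reads of Thhalv10019399m.g.

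**Figure D4:**
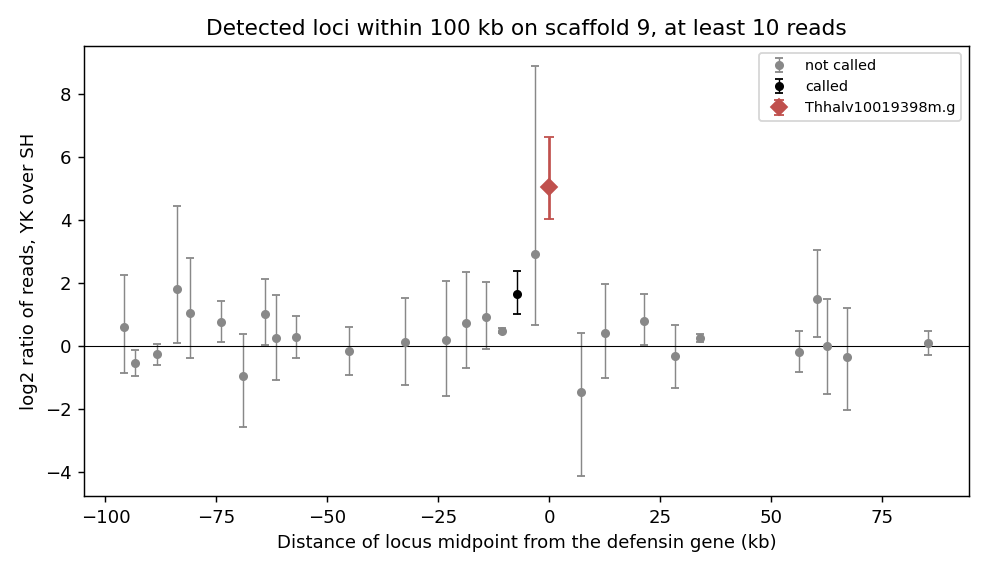
Log2 ratio of reads, YK over SH, with 95% intervals for loci of at least 10 reads within 100 kb of Thhalv10019398m.g (diamond at 0), against the distance of the locus midpoint in kb. The ratio is 5.06 at the defensin gene and 2.94 (interval 0.68 to 8.89), 1.66 and 0.50 at the short loci on its left. Some other loci also have intervals that exclude 0, in either direction. Examples are Thhalv10018462m.g at 0.76 (interval 0.14 to 1.43) and Thhalv10019237m.g at -0.52 (interval -0.93 to -0.12). The black point is Thhalv10019397m.g, the only neighbour called.

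Few genes of the pathway that controls PDF1.2 in A. thaliana could be found. Of 74 A. thaliana genes listed for jasmonate, ethylene, salicylic acid and defensins, 11 had a paired identifier, since hits are paired for only part of the table, so no value was computed over a list. Apart from the defensins, 9 loci were found, 7 had enough reads for the exact binomial test and 0 were called, against 6.62% of all genes tested, so that 7 genes are too few to read anything from it. At an unadjusted p under 0.05 there was 1, and edgeR's exact test also called 0. In jasmonate synthesis, OPR3 (Thhalv10002563m.g), which reduces the cyclic precursor, had 13 reads in YK and 15 in SH. JAR1 (Thhalv10001373m.g), which joins jasmonate to isoleucine to make the active hormone, had 14 in YK and 9 in SH. Downstream, the transcription factor MYC3 (Thhalv10000808m.g) had 31 in YK and 27 in SH. Each of these differences lay within counting error, with an interval of the log2 ratio of -1.40 to 0.97 for OPR3, -0.67 to 2.03 for JAR1 and -0.59 to 1.00 for MYC3.

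In ethylene signalling, the receptor ERS1 (Thhalv10001362m.g) had 18 reads in YK and 7 in SH, the largest imbalance among the tested loci, and did not pass (interval of the log2 ratio 0.04 to 2.86, adjusted p = 0.234 in the exact binomial test). RAN1 (Thhalv10000758m.g), the copper transporter that supplies the receptors, had 11 in YK and 5 in SH. The transcription factor EIL1 (Thhalv10001938m.g) had 20 in YK and 23 in SH, and EBF1 (Thhalv10000087m.g), the F-box protein that marks EIN3 and EIL1 for degradation, had 21 in YK and 21 in SH. RTE1 (Thhalv10002087m.g), a regulator of the receptor ETR1, had 4 in YK and 4 in SH. ERF5 (Thhalv10000931m.g), an ethylene response factor, had 1 read in YK and 0 in SH. The reads of these 9 loci ranged up to 31 in YK and 27 in SH, far below the YK reads of any defensin gene, so that their ratios are loosely bounded. A call that was missed does not show equal levels.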

How the data were processed

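The members and lists were chosen with earlier results of these data known. Pyrosequencing reads (GS-FLX, non-stranded, cDNA fragments of 300 to 500 bp) were trimmed by the authors to a quality of 12 and a length of at least 50 bp and aligned to the SH genome of Phytozome v9.1 with GMAP, per the methods, or GSNAP, per the submitters' processing notes. Uniquely mapped reads were counted by the authors per gene with HTSeq 0.5.4p5 ignoring strand, with loci from a Cufflinks assembly included. The deposited counts are raw. The deposited fold ratio (YK over SH), p-value and adjusted p-value are the authors' own (DESeq 1.14.0) and were not used. Of the table, 1 blank row was left out.

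Reads of YK were set against reads of both libraries with a two-sided exact binomial test (scipy 1.17.1), adjusted by Benjamini-Hochberg over genes with at least 10 reads with calls at an adjusted p below 0.05 and, with 0.5 reads added, a 2-fold difference or more. Alternatives were edgeR 4.0.16 (R 4.3.3) with assumed spread, a rewritten negative binomial scheme for data without replicates (spread 0.128 plus 1.56 over the mean, false discovery rate 0.2), other scalings, minimum reads and fold limits. The tests were first tested on simulated counts that held counting error only. That could not check how they behave where plants of an accession differ.

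Named genes are the defensin genes, detected loci within 25 kb or nearest to them, list members with a hit paired in the supplementary gene table (1998 of its rows were at hand), and Actin2. The number of reads limits precision, and without molecular identifiers reads are not independent molecules. None of the identifiers of the defensin genes matched the RefSeq gene table.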

Additional observations from a re-analysis of the deposited data

How the results depend on the processing

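With 1 library per accession no sample could be left out. No paired analysis was possible because each accession has a single library. All 3 defensin genes stayed higher in YK under the other scalings and with 1 read added, changes too small to turn ratios of this size. The other tests and limits reuse the same ratio and could not change its direction. Their outcomes are not given for Thhalv10000662m.g and Thhalv10019398m.g, which the study had listed on this contrast, although both were among the genes tested over the table. The call of Thhalv10000535m.g (log2 ratio 1.17) was lost with a limit of 4-fold, in edgeR's exact test with a coefficient of variation of 0.2 or 0.4, and in the negative binomial test. Genes called over the table numbered 664 (275 higher in YK, 389 in SH), 315 with 4-fold (131 and 184), 200 with edgeR at 0.2 (77 and 123), and 36 with edgeR at 0.4 or the negative binomial test (11 and 25 in each). Scaling by total reads gave 438 higher in YK and 310 higher in SH. Within 25 kb, 2 neighbours were called under scaling by total reads, with or without the 5 most abundant genes, and 0 with 4-fold, edgeR at 0.2 or 0.4, or the negative binomial test. The added neighbour was Thhalv10019394m.g. A window of 100 kb adds 1 called neighbour to Thhalv10000662m.g, which is Thhalv10000535m.g. Per kb of locus span the YK shares were 67.2% for Thhalv10000535m.g and 8.29% for Thhalv10019398m.g, since the loci differ in length. Apart from the effect of fold limits, locus length and window, the cause of these changes was not tested.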
